A study of Mus musculus with 6 samples.

Results

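Krüppel-like factors (KLFs) are transcription factors that bind GC-rich and CACCC-type promoter sequences through zinc fingers at their carboxyl ends. The family holds activators and repressors, many of which answer quickly to growth factors, hormones, blood flow or injury, and the related SP proteins bind similar sites. The 9 genes described here, Klf6, Klf2, Klf3, Klf4, Klf5, Klf9, Klf10, Klf13 and Klf15, are 9 of 19938 genes measured in this series. They were chosen by symbol, and each is read by 1 probe set whose annotation names no other gene. The set was drawn up with earlier results for the same contrast known, among them the difference of Klf6. The differences of these 9 genes between the cell fractions are therefore a description and carry no test.

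The cells came from 3 weaned mice, 3.5 weeks old, of a line labelled CyclinB1-GFP transgenic. This reporter is named after cyclin B1, which builds up before mitosis, and every sample of both groups carries it. What drives the transgene is not given in the sources used here. Each dissociated liver was sorted by flow cytometry into GFP-positive cells, which the labels call replicating, and GFP-negative cells, which they call quiescent, giving 3 Affymetrix arrays per group. No treatment was given besides perfusion and sorting, and the contrast asks which transcripts differ between dividing and resting cells of the growing liver.

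Array medians lay between 24.3 and 26.7 intensity units, and precision is set by the small number of arrays. All 10 listed hepatocyte markers lay above the array median on every array. All 10 listed mitosis genes were higher in GFP-positive cells in limma's fit over all genes, with differences of 2.49 to 4.71 on the log2 scale. These genes check the sort, since the cells were divided by a reporter named after a mitotic cyclin. All values below are log2 of the deposited intensity, differences are GFP-positive minus GFP-negative, and ± gives the SD of 3 arrays for a level and the SE for a difference. A gene was called where its Benjamini-Hochberg adjusted p from limma, over all 19938 genes, was below 0.05. Counts of genes with an unadjusted p below 0.05 are given without the share over all genes, and nothing is read from them.

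The promoter sequence of Klf6 is shown first, because Klf6 was the KLF gene with the largest difference, beside those of Klf9 and Klf2, whose groups overlapped. The sequences are RefSeq's for the mouse build GRCm38.p6 and were found for 7 of the 9 genes. Klf6 lies on the plus strand, and the stretch shown is chr13:5861239-5861488, the 250 bases before its annotated start. Capitals mark matches on either strand to the CCAAT box (CCAAT, read ATTGG on the opposite strand) and to 2 forms of the cell cycle genes homology region, or CHR (TTTGAA and TTCGAA). In the Klf9 stretch, chr19:23140976-23141225 on the plus strand, capitals mark the same motifs. In the Klf2 stretch, the 150 bases at chr8:72318912-72319061 on the plus strand, capitals mark the letters TAAATTTA, a core of the element bound by MEF2 factors.
Klf6: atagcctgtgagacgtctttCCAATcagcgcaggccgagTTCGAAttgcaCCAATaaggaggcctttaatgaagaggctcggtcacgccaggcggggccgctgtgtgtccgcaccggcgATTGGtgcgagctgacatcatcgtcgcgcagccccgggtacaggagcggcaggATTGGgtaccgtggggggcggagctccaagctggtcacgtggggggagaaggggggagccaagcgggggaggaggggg
Klf9: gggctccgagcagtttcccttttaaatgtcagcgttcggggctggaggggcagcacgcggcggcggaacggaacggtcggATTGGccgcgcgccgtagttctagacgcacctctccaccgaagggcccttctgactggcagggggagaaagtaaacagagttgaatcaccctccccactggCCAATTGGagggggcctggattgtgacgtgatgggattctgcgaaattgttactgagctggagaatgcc
Klf2: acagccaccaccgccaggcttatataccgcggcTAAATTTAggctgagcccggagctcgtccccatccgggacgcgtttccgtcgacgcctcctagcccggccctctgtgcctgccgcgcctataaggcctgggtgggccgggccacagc

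CCAAT boxes and CHR elements are known from the promoters of many genes expressed in G2 and mitosis. Over the whole window of 300 bases, from 250 before the start to 50 from the start on, Klf6 held 4 CCAAT matches, 1 TTTGAA and 1 TTCGAA. The CCAAT matches began at bases -230, -200, -131 and -78, the TTCGAA at -211 and the TTTGAA at 18, counted from the annotated start as base 1. At least 1 CCAAT match was present in 37.4% of 32851 promoters of this length, and 4 or more in 1.06%. TTTGAA was present in 17.9% and TTCGAA in 1.56%, and 0.125% of promoters held CCAAT together with both CHR forms. Among the listed mitosis genes with a promoter sequence, 9 of 9 held CCAAT and 8 of 9 also held a CHR of either form. Of all promoters, 7.52% held both. The units differ: a mitosis gene counted if any of its promoters matched, while the percentages are of 32851 promoters from 27025 genes.

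None of the other 6 KLF promoters held a CHR of either form. Klf9 held 3 CCAAT matches, a pair of which overlap in CCAATTGG, while Klf13 held 2, Klf15 held 1, and Klf2, Klf3 and Klf4 held none. Of all promoters, 3.37% held 3 or more CCAAT matches. GC boxes (GGGCGG) are sites to which SP and KLF proteins bind. They numbered 6 in Klf3, 4 in Klf4, 3 in Klf13, 2 in Klf2 and 1 each in Klf6 and Klf15. Of all promoters, 35.7% held at least 1 GC box and 5.49% held 4 or more. At least 1 was also held by 9 of 9 mitosis genes. CACCC boxes (CACCC) are the other site of the family, and numbered 5 in Klf3 and 0 in Klf6 and Klf4. Klf2, Klf9, Klf13 and Klf15 held 1 each. A CACCC box was present at least 1 time in 57.5% of all promoters and 4 or more times in 3.1%. Klf15 held 3 E-boxes (CACGTG), the site of clock and MYC-type factors, while Klf6 and Klf4 held 1 each. At least 1 E-box was in 7.15% of all promoters, and 3 or more were in 0.0883%. Of the 9 mitosis genes, 0 held an E-box and 3 held a CACCC box. The MEF2 core shown for Klf2 was in no other KLF promoter searched and in 0.545% of all promoters. Letters of E2F sites (TTTCCCGC and TTTGGCGC), the AP-1 site (TGACTCA) and the cyclic AMP response element (TGACGTCA) were in none of the 7 windows. Of all promoters, 1.07%, 0.514%, 5.2% and 1.79% held these 4 in the order given. Of the 9 mitosis genes, 0, 0, 0 and 1 held them, so their absence does not set the KLF promoters apart from those genes. These letters were chosen after the sequences and the expression values were seen. A match is a description of the sequence and not evidence of binding.

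**Figure D1:**
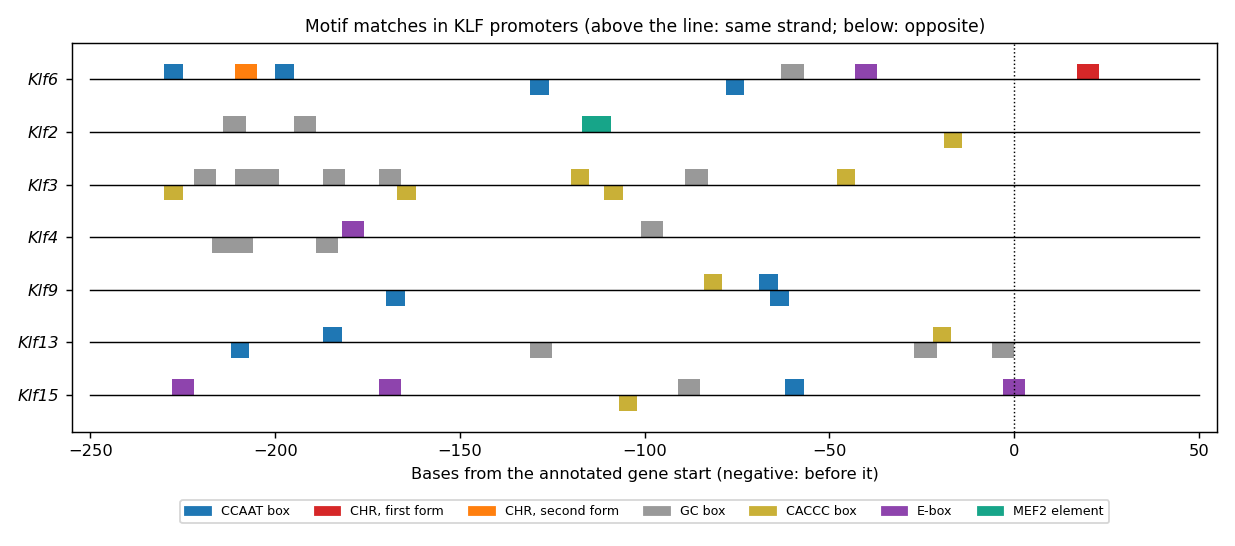
Motif matches in the 7 KLF promoters, by distance in bases from the annotated gene start (x axis, negative before it), drawn above each line for the same strand and below it for the opposite strand. The Klf6 line carries 4 CCAAT boxes and both CHR forms, and no other line carries a CHR.

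Klf6 encodes a zinc finger factor that is induced early after growth stimulation or tissue injury and is known in liver from hepatocytes and activated stellate cells. It was nearly 2 times as high in GFP-positive cells, at 1.95-fold. Its values were 5.13, 5.53 and 5.36 in GFP-negative arrays 1, 2 and 3 and 6.24, 6.54 and 6.14 in GFP-positive arrays 1, 2 and 3. Every GFP-positive array lay above every GFP-negative one, with a gap of 0.61 between the groups, wider than the SD of 0.20 and 0.21 within them. The difference was 0.96 ± 0.17, and between arrays of the same number it ran from 0.78 in number 3 to 1.11 in number 1.

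Klf6 was the only one of the 9 genes called, and it was called higher. Over all genes, 1.55% were called higher, and nothing is read from the count, since this contrast chose the gene. The count of 1 became 0 without GFP-negative array 1, GFP-negative array 3, GFP-positive array 1 or GFP-positive array 2, each left out alone. The difference itself stayed between 0.85 and 1.06 when single arrays were left out. Of all genes, 309 had a difference at least as large, Klf6 included. In sorted pools of cells, a change in the share of cells of a type cannot be told apart from a change in RNA per cell.

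**Figure D2:**
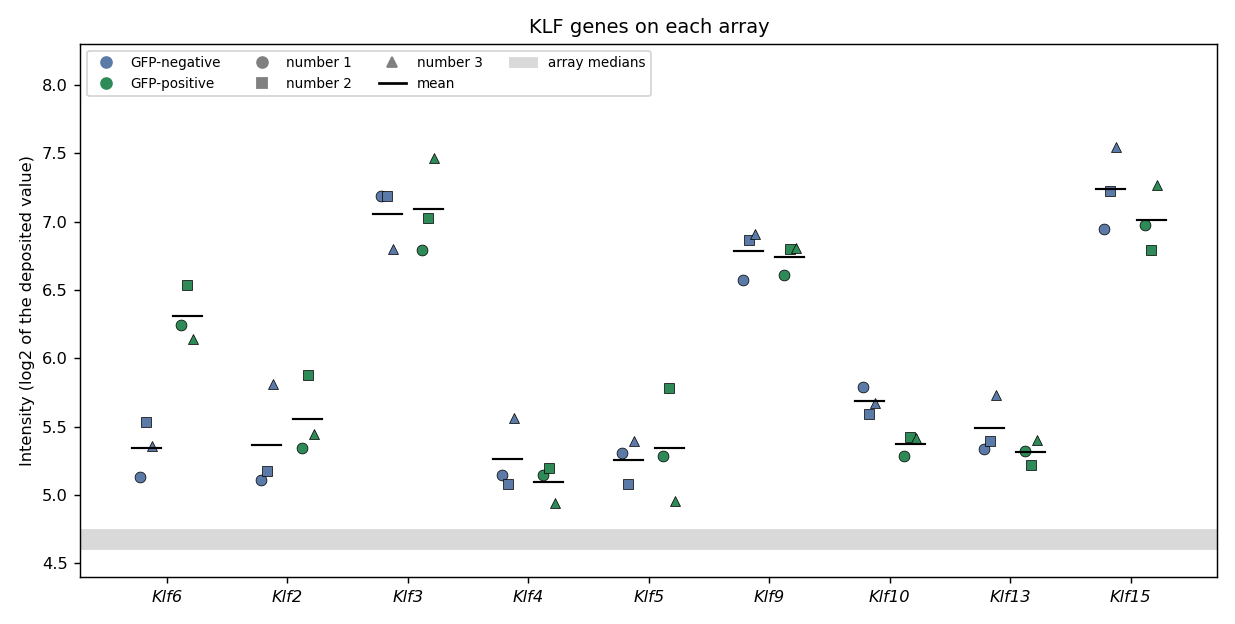
Log2 intensity (y axis) of the 9 KLF genes on each of the 6 arrays, with GFP-negative points on the left and GFP-positive points on the right of each gene, symbols for replicate numbers and bars for group means. The Klf6 groups are apart by 0.61 upward, the Klf10 groups do not overlap downward, and heights of different genes come from different probe sets and cannot be set against each other.

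The other 3 genes of the rapid-response kind, Klf2, Klf4 and Klf10, had differences between -0.31 and 0.19. Klf2, which keeps endothelial cells quiescent under flow, was at 5.11, 5.18 and 5.81 in GFP-negative and 5.34, 5.88 and 5.45 in GFP-positive arrays 1, 2 and 3. Its groups overlapped (difference 0.19 ± 0.22), and the difference within numbers was 0.23, 0.70 and -0.36, so that number 3 ran against the others. Klf4, a factor of epithelial differentiation, endothelium and pluripotency, was at 5.15, 5.08 and 5.57 in GFP-negative and 5.15, 5.20 and 4.94 in GFP-positive arrays. Its groups also overlapped (-0.17 ± 0.17), and the GFP-negative array 3 alone stood high.

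Klf10 is an early gene of transforming growth factor beta (TGF-beta) signalling that encodes a repressor. It lay at 5.79, 5.59 and 5.67 in GFP-negative and 5.29, 5.43 and 5.41 in GFP-positive arrays 1, 2 and 3. All GFP-positive values lay below all GFP-negative ones, the opposite of Klf6. The difference was -0.31 ± 0.13, with -0.50, -0.16 and -0.26 within numbers, and the gene was not called. Groups apart in this direction were found in 6.98% of all genes, and groups apart upward, as for Klf6, in 6.82%. Over the 6 arrays the levels of Klf10 and Klf6 correlated by Pearson's r = -0.91, a description over arrays that share the 2 sorted groups.

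Klf5 and Klf3 had the differences nearest 0 on the upper side. Klf5, which drives proliferation in several epithelia, was at 5.30, 5.08 and 5.39 in GFP-negative and 5.28, 5.78 and 4.96 in GFP-positive arrays. The GFP-positive arrays held both its highest and its lowest value, and the difference was 0.08 ± 0.21. Klf3, a repressor that works through the corepressor CtBP, was at 7.19, 7.19 and 6.80 against 6.79, 7.03 and 7.46 (0.04 ± 0.20). The groups overlapped, with a similar lowest value and a higher top in GFP-positive cells, and the sign within numbers turned, at -0.40, -0.16 and 0.66.

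Klf13, Klf9 and Klf15 had differences between -0.22 and -0.04, with overlapping groups. Klf13, a repressor and activator first known from T lymphocytes, was at 5.33, 5.40 and 5.73 in GFP-negative and 5.32, 5.22 and 5.40 in GFP-positive arrays (-0.17 ± 0.15). It was lower in GFP-positive cells within each of the 3 numbers, but by 0.01 on the log2 scale in number 1. Klf9, which thyroid hormone and glucocorticoids induce, was at 6.58, 6.86 and 6.91 against 6.61, 6.80 and 6.81 (-0.04 ± 0.15). Number 1 was the lowest array in both groups, and no number differed by more than 0.10 in size. Klf15, a glucocorticoid-induced regulator of gluconeogenesis and amino acid breakdown, was at 6.95, 7.22 and 7.54 against 6.98, 6.79 and 7.27 (-0.22 ± 0.19). Its highest value was that of GFP-negative array 3, and within numbers it differed by 0.03, -0.43 and -0.27.

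Of the 8 genes other than Klf6, 3 had a difference above 0 and 5 below, from -0.31 for Klf10 to 0.19 for Klf2. The median over all 9 was -0.04, beside -0.03 over all genes. The SE of these 8 differences ran from 0.13 to 0.22, and their 95% intervals together covered -0.65 to 0.68. Changes within that range could not be resolved for every gene with 3 arrays per group, and a gene that was not called is not shown to be unchanged. All 9 genes lay above the array median on every array.

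The remaining measured KLF genes, which were not among the 9, gave no call. Of 8 such genes, 0 were called by limma and 1, Klf11, had an unadjusted p below 0.05. Klf11 encodes a repressor related to Klf10, and like it is induced by TGF-beta. It was at 6.03, 6.18 and 6.24 in GFP-negative and 5.90, 5.94 and 5.55 in GFP-positive arrays (-0.35 ± 0.15, limma adjusted p = 0.55). Its groups did not overlap, as was found in this direction in 6.98% of all genes, and nothing is read from it. The median difference of the 8 was -0.06. Klf8 and Klf17 lay below the array median on every array, where a difference says little.

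The SP genes, which share the GC box with the KLFs, gave 0 calls among 8 measured and 0 unadjusted p-values below 0.05 in limma. Their median difference was -0.13, and the largest in size was that of Sp6 (-0.22 ± 0.15, limma adjusted p = 0.81). Sp1, the ubiquitous founder of the group, differed by 0.14 ± 0.16, with overlapping groups. Across the 25 KLF and SP genes measured, no gene besides Klf6 had a difference as large in size as that of Klf6.

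**Figure D3:**
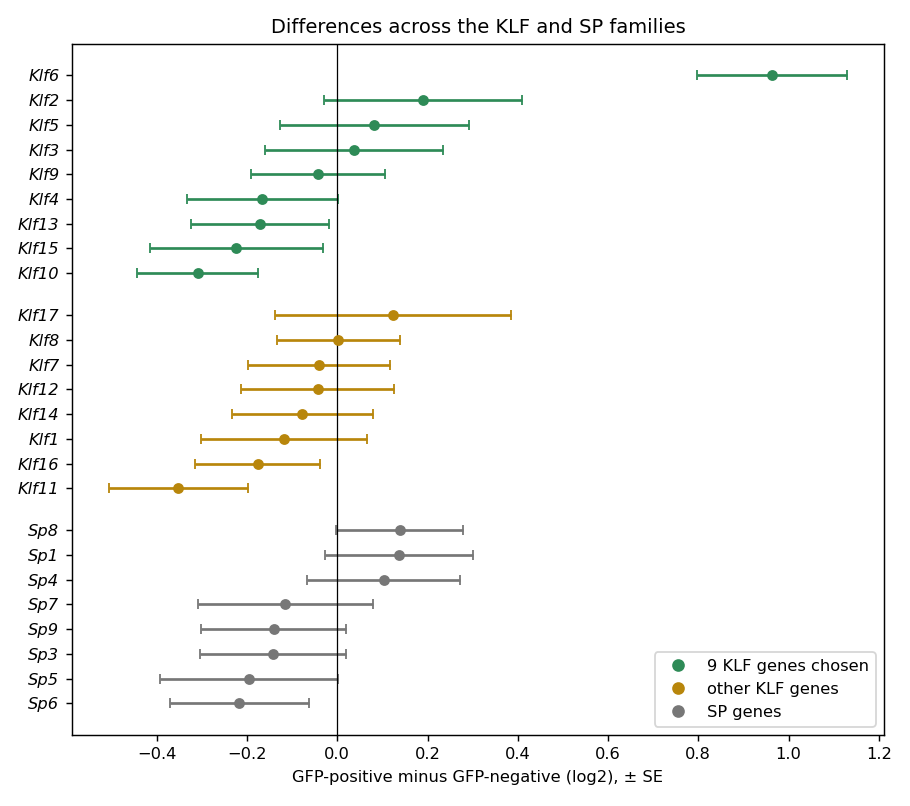
Difference GFP-positive minus GFP-negative on the log2 scale (x axis, points) with its SE (bars) for the 9 KLF genes chosen, the 8 other KLF genes and the 8 SP genes. Klf6 at 0.96 stands alone on the right, and the other 24 genes lie between -0.35 (Klf11) and 0.19 (Klf2).

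KLF proteins act through corepressors and acetyltransferases, and some are removed by ubiquitin ligases. Of 13 such cofactor genes, 0 were called by limma, and 2 had an unadjusted p below 0.05, both higher. Without the share of all genes at that p, nothing is read from the 2. Sap30, a subunit of the SIN3 deacetylase complex, was at 6.42, 6.45 and 6.32 in GFP-negative and 6.85, 7.22 and 7.10 in GFP-positive arrays. Its groups did not overlap, as was found upward in 6.82% of all genes. The difference of Sap30, 0.66 ± 0.15, did not pass (limma adjusted p = 0.070). Hdac1, a deacetylase of the same complex, was at 7.22, 7.38 and 7.37 against 7.77, 7.67 and 8.36, and did not pass either (0.61 ± 0.19, limma adjusted p = 0.27). It is named after its values were seen. The list median was 0.01.

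The kinase cascade of MAP2K5 and ERK5 acts through MEF2 factors on Klf2 and Klf4. None of its 7 measured genes was called by limma and none had an unadjusted p below 0.05. The list median was 0.04, and the largest difference was that of Map2k5 (0.36 ± 0.25, limma adjusted p = 0.80), which had the opposite sign in number 2 (-0.41). Klf2 and Klf4, the targets of this cascade, are the overlapping genes described above.

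Of 16 measured genes that have been reported as KLF targets, 0 were called by limma, while 4 had an unadjusted p below 0.05, 1 higher and 3 lower. Nothing is read from the 4, since the share of all genes at that p was not counted. Their median difference was -0.14. The largest was that of Ccnd1, the cyclin D1 gene, at -0.65 ± 0.34 (limma adjusted p = 0.67). Its GFP-negative array 2, at 7.92, stood far above the other 5 arrays, which lay between 6.19 and 6.50.

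Inducers of the KLF genes were followed through other genes that answer to them. Of 10 glucocorticoid-induced genes, which answer to the same hormone as Klf9 and Klf15, 0 were called by limma and 0 had an unadjusted p below 0.05 (median -0.14). The largest difference was that of Errfi1, a feedback inhibitor of the EGF receptor (-0.39 ± 0.19, limma adjusted p = 0.60). Of 8 early genes of TGF-beta signalling, 0 were called by limma and 0 had an unadjusted p below 0.05 (median -0.08). Here Tgif1, a corepressor of SMAD proteins, differed most (0.24 ± 0.18, limma adjusted p = 0.82). It was 1 of 2 among the 8 with a difference above 0, while 6 lay below 0, the sign of Klf10 and Klf11. Of all genes, 55.7% lay below 0.

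Klf6, Klf2, Klf4 and Klf10 are often counted among the immediate early genes, which cells transcribe soon after a stimulus. Of 22 other such genes, 20 had a difference below 0, as did 55.7% of all genes, and the median was -0.28, beside -0.03 over all genes. None was called by limma, and 4 had an unadjusted p below 0.05, all lower. The share of all genes at that p was not counted, so nothing is read from the 4. Myc had the largest difference, at -0.82 ± 0.49 (limma adjusted p = 0.74), with array 2 highest in both groups at 7.27 and 6.39.

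**Figure D4:**
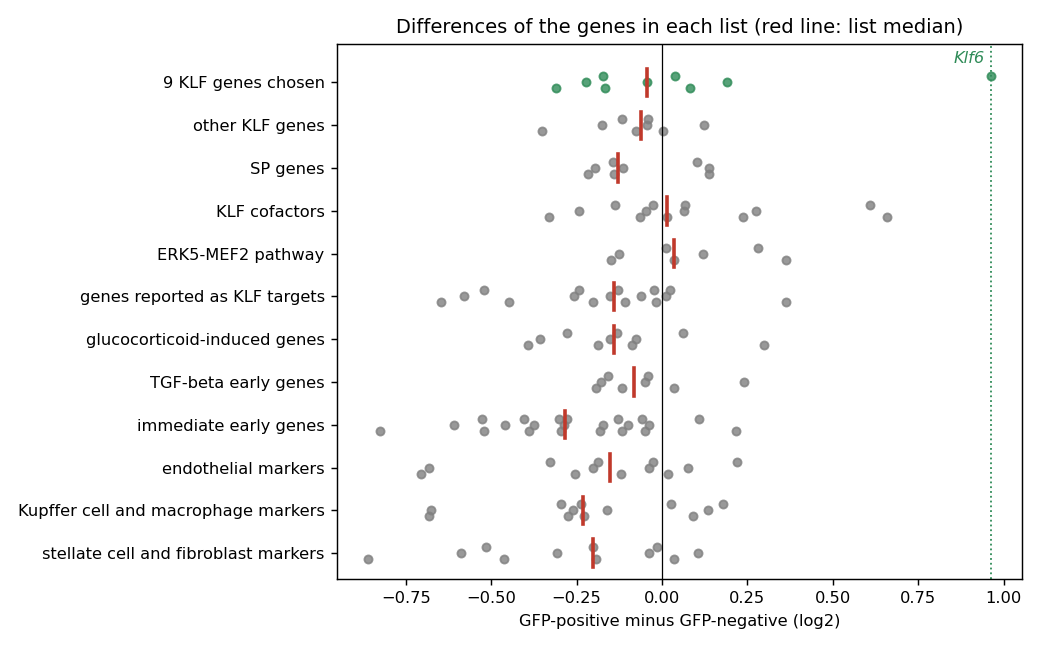
Difference GFP-positive minus GFP-negative on the log2 scale (x axis) of every measured gene in 12 lists (y axis), each point a gene and each red line the list's median. Klf6 at 0.96 (dotted line) lies to the right of every other gene shown, and the immediate early genes centre on -0.28. Lists not drawn are the mitosis genes, all of which lie further right at 2.49 to 4.71, and the hepatocyte, cholangiocyte, lymphoid and neutrophil markers.

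KLF genes are also expressed in non-hepatocyte liver cells, Klf2 and Klf4 above all in endothelium and Klf6 in stellate cells and macrophages. The summed intensities of these cells' marker lists lay lower on the GFP-positive arrays. The 12 endothelial markers summed to 387 to 476 in GFP-negative and 353 to 366 in GFP-positive arrays. The 12 Kupffer cell and macrophage markers summed to 274 to 365 against 239 to 265, and the 11 stellate cell and fibroblast markers to 439 to 502 against 334 to 386. These 3 sums did not overlap between the groups. A sum gives most weight to bright markers, and the markers of a list did not all go 1 way. A difference above 0 was found for 3 of the 12 endothelial, 4 of the 12 Kupffer and 2 of the 11 stellate markers. The sums of 3 further lists overlapped between the groups: 118 to 133 against 121 to 128 for 5 cholangiocyte markers, 114 to 150 against 125 to 134 for 9 lymphoid markers, and 140 to 208 against 119 to 141 for 8 neutrophil markers. None of these 22 genes was called by limma, and 1, S100a8 of neutrophils, had an unadjusted p below 0.05 (-0.97 ± 0.32, limma adjusted p = 0.33). The largest cholangiocyte difference was that of Krt19 (-0.12 ± 0.16, limma adjusted p = 0.92), and the largest lymphoid one that of Ms4a1 (0.21 ± 0.17, limma adjusted p = 0.85). On every array 2 of the 12 endothelial, 5 of the 12 Kupffer and 4 of the 11 stellate markers lay below the array median.

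Among these markers, Clec4f, a lectin gene of Kupffer cells, was called lower (-0.68 ± 0.13, limma adjusted p = 0.032), and over all genes 0.115% were called lower. The Clec4f call was lost with the replicate block, without both arrays of number 2 and without any 1 array. No endothelial or stellate marker was called by limma, while 2 and 3 of them had an unadjusted p below 0.05, all lower. Nothing is read from these counts, since the share of all genes at that p was not counted. The largest endothelial difference was that of the adhesion gene Cdh5 (-0.71 ± 0.27, limma adjusted p = 0.44). The largest stellate difference was that of Dcn, which encodes the matrix proteoglycan decorin (-0.86 ± 0.26, limma adjusted p = 0.24). The 10 hepatocyte markers summed to 60091 to 62245 in GFP-negative and 54669 to 56748 in GFP-positive arrays, also without overlap. The part of these shifts in the KLF values was not tested.

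The genes most like Klf6 were sought among 9270 named genes that lay above the array median on every array. Over the 6 arrays, the highest Pearson correlations with Klf6 were those of Tceal9 (r = 0.996), Tmem209 (0.993), Rab36 (0.993), Rad51c (0.989) and Cdca4 (0.989), and 58 genes had r above 0.95. With 6 arrays in 2 groups, such an r is a description and reflects mostly the step between the groups. Tceal9, of a family of elongation factor-like proteins, was at 7.96, 8.35 and 8.13 in GFP-negative and 9.33, 9.59 and 9.05 in GFP-positive arrays. The difference of Tceal9 was 1.18 ± 0.18, and its order of arrays within each group was that of Klf6. Rad51c, a recombination gene, followed the same course (5.02 ± 0.20 against 5.92 ± 0.13, difference 0.90 ± 0.15).

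Once the group means were taken out, other genes were closest to Klf6. They were Xylt2 (r = 0.997), Tmem161b (0.996), Hpcal1 (0.996), Bcl9 (0.993) and Tmco1 (0.992). In all 5 the groups overlapped and the differences ran from -0.38 (Bcl9) to 0.28 (Tmem161b). Both sets share the same 6 arrays, and no p is given for either.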

How the data were processed

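Total RNA (10 ng per sample) was amplified and hybridised to Affymetrix arrays, per the labels' protocols. The authors deposited 1 intensity per probe set and array, made with RMA (version and settings not given in the sources used here) per the submitters' processing notes. The values are linear, so log2 was taken, with no further normalization or filter. Of 35512 probe sets, 21789 have 1 gene symbol, 1621 several and 12102 none listed, and only those with 1 were named. Where a gene had several, the probe set of highest mean stood for it (19938 genes).

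Differences were fitted with limma 3.58.1 in R 4.3.3 (lmFit, eBayes, group as the single term, 4 residual and 5.44 prior degrees of freedom) and tested on simulated data. Benjamini-Hochberg adjustment covered all genes at 0.05. The 9 genes and the 17 gene lists were chosen with earlier results of these data known, and 7 of 183 listed symbols were not matched. Genes named from a list were the called ones or, with none called, the one with the largest difference. Others are said to be chosen after their values were seen, as were Sp1, Klf8 and Klf17. The 5 genes most like Klf6 were taken by Pearson's r, over arrays and over deviations from group means.

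Replicate numbers were taken to pair the fractions of 1 mouse. The design text describes 3 livers that each gave both fractions, while no label ties a number to an animal. The sex-linked gene Xist stood at 9.03 and 9.80 in the arrays of number 2 and at 3.73 to 4.04 elsewhere. Y-linked Eif2s3y stood at 1.98 and 2.24 in number 2 and at 6.78 to 7.31 elsewhere. These values mark number 2 as female and the others as male, which leaves numbers 1 and 3 indistinguishable. Deviations from group means correlated by 0.20, 0.06 and -0.05 for numbers 1, 2 and 3. Alternatives were other normalizations, an offset, a filter, probe set means, an intensity trend, array weights, the block and left-out arrays. Promoters were searched and plots made with Python 3.11.15, pandas 2.3.3 and matplotlib 3.10.9.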

Additional observations from a re-analysis of the deposited data

How the results depend on the processing

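The difference of Klf6 stayed above 0 under all 15 alternatives, from 0.75 to 1.06. For a gene with 1 probe set, the filter, probe set means, intensity trend and replicate block cannot move the difference. Its 0.96 under these settings therefore says nothing about stability. The Klf6 difference was 0.75 with an offset of 16 added before log2, which shrinks differences of low values by construction. It passed the threshold of limma's fit in 11 of the 15, and the count of called KLF genes, 1 with all arrays, ran from 0 to 1 when each array in turn was dropped. The arrays whose absence gave 0 were GFP-negative 1, GFP-negative 3, GFP-positive 1 and GFP-positive 2. Klf6 was chosen with its difference in this contrast known, so these passes and counts are a description and carry no test. With the replicate block the Klf6 difference was 0.96 ± 0.16, the same count of 1 KLF gene was called, and 355 genes were called in all against 333 without it. Over the other 8 KLF genes and the same alternatives (120 values) the difference ran from -0.38 to 0.41. None moved by more than 1 SD between arrays, and none was called. The filter, probe set means, trend and block cannot move these differences either. Of the 16 other gene lists, 14 had 0 calls under every setting and the mitosis list had 10 of 10, counts that say nothing about stability. The Kupffer list's 1 call, of Clec4f, was lost under 8 of the 15. With 3 arrays per group the SE of a KLF difference was 0.13 to 0.22.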

Other observations

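The arrays of number 2, female by high Xist and low Eif2s3y where the others were male, held the highest values of most glucocorticoid-induced genes. Among GFP-negative arrays number 2 was highest for 9 of the 10, among GFP-positive arrays for 7 of the 10, and in both groups for 6. The metallothionein gene Mt2 was at 11.39 in number 2 against 7.43 and 7.38 in numbers 1 and 3 of the GFP-negative arrays, and at 10.83 against 7.33 and 7.77 in the GFP-positive ones. Its neighbour in function Mt1 was at 10.70 and 10.49 in number 2, and the other 4 arrays lay between 7.44 and 8.18. Klf9 and Klf15, which glucocorticoids also induce, did not share the step of Mt1 and Mt2. Klf15 was lowest in number 2 among GFP-positive arrays, at 6.79. So were the listed glucocorticoid-induced genes Tat, at 11.80, and Zbtb16, at 6.95, so this does not set Klf15 apart from the list. Of the 9 KLF genes, Klf6 alone was highest in number 2 of both groups. The share of all genes highest in number 2 was not counted, so nothing is read from these counts. The genes named here were picked out after their values were seen. With 1 such animal, its sex cannot be told apart from its other traits, and no test is possible.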
